A study of Homo sapiens with 24 samples.

Results

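The response of MM1S cells to YKL-5-124 (YKL below) was set out by time: which RNAs changed early, which changed late, and which changed back or turned round between 6 h and 24 h. MM1S is an established human multiple myeloma line. The comparison used 12 of the 24 libraries of the series, 3 in each of 4 groups: YKL at 24 h, DMSO vehicle at 24 h, YKL at 6 h and DMSO at 6 h, with 98 nM on the labels of all 4 groups. The other 12 libraries, from the myeloma line H929 at 83 nM, entered the same fit and served as a comparison, and line and dose cannot be told apart. The quantity of interest is the change at 24 h (YKL minus DMSO) minus the change at 6 h, on log2(rescaled FPKM + 1), called the time difference here. A negative time difference means a lower value under YKL, relative to vehicle, late than early. FPKM (fragments per length of transcript and library size) were rescaled so that the typical gene kept its level across libraries, and the pseudocount of 1 understates the changes of low genes. Nothing in the labels tells if the 3 libraries of a group were separate cultures. The p-values speak for how these libraries varied, possibly for technical reasons. The files give FPKM and no read counts were used, so depth is unknown. In such bulk samples, fewer cells with an RNA and less of it per cell cannot be told apart.

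CDK7 is the kinase of the general transcription factor TFIIH: it phosphorylates the tail of RNA polymerase II at initiation and, as the CDK-activating kinase, also activates the CDKs that drive the cell cycle. Genes of DNA replication are switched on by E2F factors once the retinoblastoma protein is phosphorylated, and genes of mitosis are switched on later in the cycle through the MuvB complex with B-MYB and FOXM1. The series title speaks of CDK7 inhibition, and YKL is known here by its code name alone. RNAs of short half-life can follow a change in transcription within hours, whereas RNAs tied to cell cycle stage follow the cycle itself.

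The whole-library scale was uneven across the 4 groups. The median-of-ratios factor of the MM1S libraries was 0.361 to 0.799 at 24 h and 0.784 to 1.22 at 6 h. Its geometric mean at 24 h was 0.5 times that at 6 h with YKL and 0.437 times with DMSO (exact permutation p = 0.1 each, the smallest that 3 against 3 allows). Between treatments, the factor with YKL was 0.826 times that with DMSO at 24 h (exact permutation p = 0.8) and 0.722 times at 6 h (p = 0.1, by the same exact test). Rescaling takes out such a shift of whole libraries. Across the MM1S libraries, summed ERCC spike-in FPKM was 137825 to 150501 and summed gene FPKM 361698 to 1497884. A difference in gene RNA relative to the spike-ins is thus taken out as well. On the scale as deposited, 85 genes were higher and 841 lower at 24 h, and 115 higher and 1245 lower at 6 h, against 1791, 1655, 1024 and 896 after rescaling. As deposited, 10 time differences were called, against 1315 after rescaling, and all 1315 had the same sign on both scales. The sign is a weak check, as the median time difference of all genes was -0.00 after rescaling and 0.13 as deposited. The results below use rescaled values and are changes relative to the typical gene. Spike-ins spread most in YKL 6 h replicate 2 and DMSO 24 h replicate 1. Without these libraries 1375 genes had a called time difference, and 956 of the 1315 were among them.

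Of 12418 genes tested, 1315 (10.6%) had a called time difference (limma, Benjamini-Hochberg adjusted p under 0.05), 535 higher (4.31%) and 780 lower (6.28%) at 24 h than at 6 h. YKL against DMSO itself called 3446 genes at 24 h (27.8%; 1791 higher, 14.4%, and 1655 lower, 13.3%) and 1920 at 6 h (15.5%; 1024 higher, 8.25%, and 896 lower, 7.22%), and 954 at both times. Across genes the 24 h and 6 h changes had a Pearson r of 0.37, as a description over values that share no libraries. A fit of the 12 MM1S libraries alone, with less information on the spread, called 557 time differences. Scaling to equal summed FPKM called 2443, of which 2080 were higher and 363 lower, and it moved the median time difference of all genes to 0.29, against -0.00 in rescaled values. It was 0.13 on the deposited scale. The least significant call was ATPAF1 (time difference -0.49 ± 0.16 SE, adjusted p = 0.0497), and the first gene outside was MSI2 (-0.94 ± 0.30, adjusted p = 0.05).

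The genes were sorted by which of the 3 comparisons called them. Early and lasting genes, changed in the same direction at both times, numbered 891, with 476 higher (3.83%) and 415 lower (3.34%). Late only genes, changed at 24 h and with a called time difference but not changed at 6 h, numbered 857, with 321 higher (2.58%) and 536 lower (4.32%). Transient genes, changed at 6 h alone with a called return, numbered 221, with 88 higher (0.709%) and 133 lower (1.07%). Another 63 changed at both times in opposite directions, 40 higher and then lower (0.322%) and 23 lower and then higher (0.185%). A further 1635 genes were called at 24 h alone and 745 at 6 h alone without a called time difference, so their timing was not resolved, and 58 had a called time difference alone. Among the early and lasting genes that fell, 76 were further down at 24 h by a called time difference and 13 were less down. Among those that rose, 22 were further up and 5 less up.

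**Figure D1:**
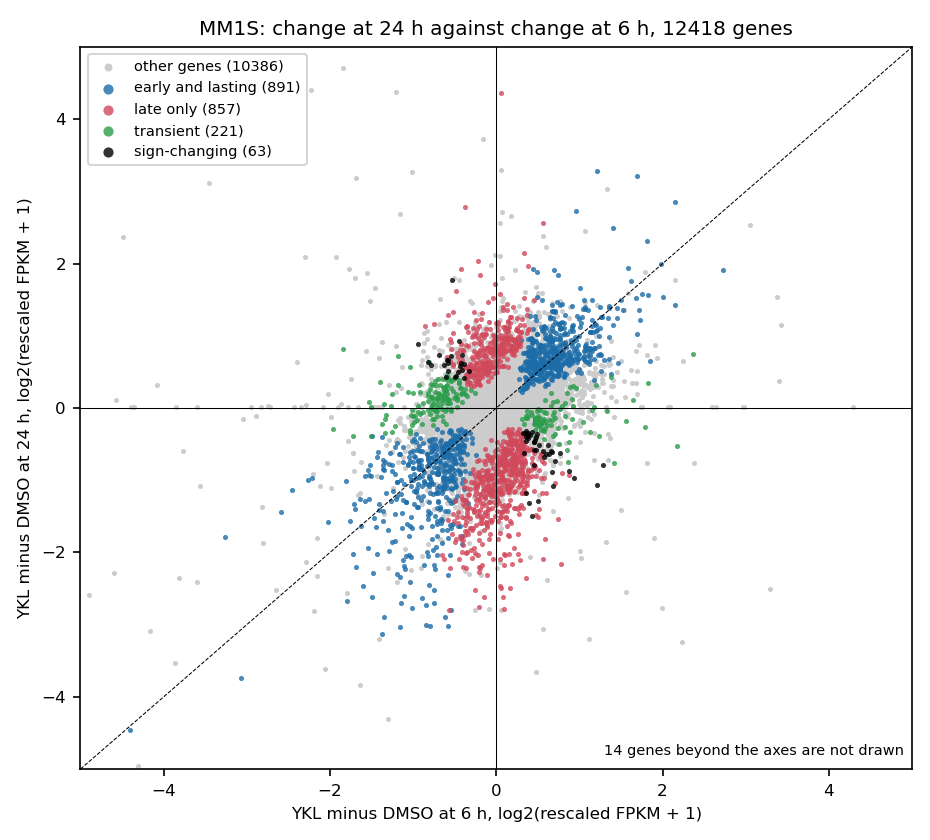
Change at 24 h (vertical axis) against change at 6 h (horizontal axis) for the genes tested in MM1S, both YKL minus DMSO on log2(rescaled FPKM + 1). Each point is a gene, coloured by class, and the dashed line marks equal changes. Late only genes lie along the vertical axis with more below 0 (536) than above (321), transient genes lie along the horizontal axis, and the 63 genes that changed sign fill the upper left and lower right. The 14 genes beyond the axes are not drawn.

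Replication genes were the clearest case of an early fall that deepened. The list of 51 replication and G1/S genes had 48 members lower and 0 higher at 24 h, 29 lower and 0 higher at 6 h, and 34 with a called time difference, all lower. The medians of the list were -1.83 at 24 h, -0.61 at 6 h and -1.17 for the time difference, against 0.05, 0.05 and -0.00 over all genes tested. By class, 29 members were early and lasting, of which 19 had a called time difference, 15 were late only, 4 were called at 24 h alone with the timing unresolved, and 3 (GINS4, POLE2 and CCNE2) were not called at either time. MCM2, a subunit of the replicative helicase, had 3.58, 5.85 and 4.71 rescaled FPKM with YKL and 44.2, 48.7 and 41.4 with DMSO at 24 h, and 24.8, 33.2 and 23.6 with YKL and 46.6, 41.8 and 54.3 with DMSO at 6 h. The YKL libraries lay below all DMSO libraries at both times and the DMSO levels of the times overlapped. Its change was -3.02 ± 0.15 (SE) at 24 h and -0.79 ± 0.15 at 6 h, with a time difference of -2.23 ± 0.21 (adjusted p = 1.2e-06).

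RRM2, the small subunit of ribonucleotide reductase, which makes deoxynucleotides, had 10.99, 10.35 and 15.1 rescaled FPKM with YKL against 97.6, 110.8 and 108.3 with DMSO at 24 h, and 50.3, 51.9 and 55.95 with YKL against 123.7, 121.7 and 111.7 with DMSO at 6 h. The groups did not overlap at either time, and the change was -3.03 at 24 h and -1.16 at 6 h. E2F1, the transcription factor that activates this programme, changed by -2.79 at 24 h and -0.54 at 6 h (time difference -2.25 ± 0.22, adjusted p = 2.2e-06). The named early and lasting falls also took in TCF19, a factor of late G1, with a change of -3.02 at 24 h and -0.58 at 6 h. FAM111B, a protease, changed by -3.13 at 24 h and -1.38 at 6 h. Not every member deepened. TIPIN, which stabilises replication forks, changed by -1.33 at 24 h and -1.71 at 6 h with no called time difference, and PCNA, the sliding clamp, by -2.47 and -1.60 likewise.

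CDC45, which joins the MCM helicase and GINS to start replication, did not fall early. It had 0.660, 0.773 and 1.05 rescaled FPKM with YKL at 24 h against 18.5, 7.88 and 10.4 with DMSO, while at 6 h it had 10.8, 12.9 and 9.68 with YKL and 9.59, 12.0 and 9.41 with DMSO. The 24 h groups were far apart and the 6 h groups overlapped. The change was -2.78 ± 0.22 at 24 h and 0.09 ± 0.22 at 6 h (time difference -2.88 ± 0.31, adjusted p = 5.81e-06). Other late only members were GINS2, the GINS subunit, with -2.80 at 24 h and -0.57 at 6 h, although its 6 h libraries did not overlap either, and MCM5, ORC1, ORC6, POLA1, POLE, RRM1, TK1 and LIG1. The 6 h change of GINS2 had an adjusted p of 0.101, so its place among the late only genes rests on the threshold. Its partners GINS1 and GINS3 were early and lasting, with -0.51 and -1.42 at 24 h and -0.44 and -1.37 at 6 h.

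Promoters were read from RefSeq (GRCh38.p14, from 250 bases before to 50 after a gene start), and 9665 of the 12418 genes matched. The 3 E2F site spellings TTTCCCGC, TTTGGCGC and TTTCGCGC were searched on both strands. At least 1 of them stood in 50% of the 44 matched replication promoters (22), in 11.6% of the early and lasting genes that fell (40 of 344), in 9.05% of the late only genes that fell (40 of 442), and in 4.75% of all promoters (459). On the strand shown alone the replication share was 20.45% (9) and that of all promoters 2.72%. On both strands, the share was 4.45% among early and lasting genes that rose and 3.89% among late only genes that rose. The replication list and the classes that fell share genes, so their shares are not separate. The promoters of MCM2 and E2F1 (early and lasting) and GINS2 (late only) are shown because they carry such a site, and were picked after the matches were known, with capitals on the matches. They lie at chr3:127598161-127598460 (plus strand), chr20:33686336-33686635 (minus strand) and chr16:85688905-85689204 (minus strand).
MCM2: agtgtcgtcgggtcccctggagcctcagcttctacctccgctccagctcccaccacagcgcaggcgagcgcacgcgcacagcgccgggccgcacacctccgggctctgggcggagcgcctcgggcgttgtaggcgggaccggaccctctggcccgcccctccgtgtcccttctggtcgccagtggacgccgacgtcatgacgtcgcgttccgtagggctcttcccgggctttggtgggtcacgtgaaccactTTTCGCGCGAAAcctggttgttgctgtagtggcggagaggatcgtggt
E2F1: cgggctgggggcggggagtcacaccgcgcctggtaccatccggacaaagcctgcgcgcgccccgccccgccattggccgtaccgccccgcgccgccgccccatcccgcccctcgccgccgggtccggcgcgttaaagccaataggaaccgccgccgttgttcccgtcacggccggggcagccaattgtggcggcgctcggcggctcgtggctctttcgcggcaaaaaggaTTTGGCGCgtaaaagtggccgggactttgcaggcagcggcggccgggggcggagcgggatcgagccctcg
GINS2: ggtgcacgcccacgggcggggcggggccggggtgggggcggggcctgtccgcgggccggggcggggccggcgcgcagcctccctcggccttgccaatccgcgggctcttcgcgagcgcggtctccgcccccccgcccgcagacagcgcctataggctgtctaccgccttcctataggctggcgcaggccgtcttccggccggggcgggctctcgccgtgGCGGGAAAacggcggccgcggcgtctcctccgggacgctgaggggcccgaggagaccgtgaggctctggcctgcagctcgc
MCM2 has TTTCGCGC on both strands, overlapping. E2F1 has TTTGGCGC on the strand shown and GINS2 has TTTCCCGC on the other strand. A match describes letters and is not a bound site.

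Mitotic genes fell late. Of 49 G2/M genes, 46 were lower and 0 higher at 24 h, against 13.3% and 14.4% of all genes tested. At 6 h, 8 were lower and 2 higher, against 7.22% and 8.25% of all genes. A called time difference was found in 41 of the 49, all lower. The medians were -1.31 at 24 h, -0.19 at 6 h and -1.21 for the time difference. By class, 32 were late only and 8 early and lasting, against 15 and 29 in the replication list. CDC20, the activator of the anaphase-promoting complex, had 16.9, 18.6 and 27.8 rescaled FPKM with YKL and 40.9, 54.5 and 53.6 with DMSO at 24 h, and 63.2, 59.9 and 57 with YKL and 65.7, 64.6 and 58.1 with DMSO at 6 h. Its libraries separated by treatment at 24 h and overlapped at 6 h, and it changed by -1.22 ± 0.16 at 24 h and -0.06 ± 0.16 at 6 h (time difference -1.15 ± 0.22, adjusted p = 0.0018). The mitotic kinase AURKA changed by -1.63 at 24 h and -0.11 at 6 h. CENPM, a centromere protein, changed by -2.62 and -0.14 (time difference -2.48 ± 0.19, adjusted p = 1.34e-07). CDK2, the kinase of S phase entry, changed by -2.17 and -0.18. The early and lasting members included CDK1, AURKB, TOP2A and MELK.

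Of the 40 genes that were higher at 6 h and lower at 24 h (0.322% of all tested), 1 was among the 49 G2/M genes and none among the 51 replication genes or the 36 genes of cell cycle CDKs, cyclins and inhibitors. That gene, BIRC5 (survivin), which guides chromosomes in mitosis and inhibits apoptosis, had 24.0, 22.9 and 28.2 rescaled FPKM with YKL against 54.3, 61.6 and 56.6 with DMSO at 24 h, and 81.3, 78.3 and 89.6 with YKL against 68.2, 64.0 and 61.8 with DMSO at 6 h. The groups did not overlap at either time and stood in opposite order. Its change was -1.17 ± 0.10 at 24 h and 0.36 ± 0.10 at 6 h (adjusted p = 0.0252 at 6 h). STIL and POC1A, both proteins of the centriole and in none of these lists, had the same order, with -1.5 and -1.32 at 24 h and 0.44 and 0.40 at 6 h. C2orf48 changed by -1.07 at 24 h and 1.21 at 6 h, at levels of 7.63 rescaled FPKM or lower in every library. Its 24 h minus 6 h difference was -0.85 for YKL and 1.43 for DMSO. CDC25C, the phosphatase that releases CDK1, was transient: it rose by 1.24 at 6 h, with -0.38 at 24 h. Of the 63 genes that changed sign, 48 had the same class after a cyclic loess normalisation, 28 after scaling to equal sums and 2 on the deposited scale.

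The element TTTGAA (the CHR, a cell cycle promoter element bound by MuvB) stood on either strand in 69.8% of the 43 matched G2/M promoters (30), in 19.7% of the late only genes that fell (87 of 442), in 14.5% of the early and lasting genes that fell (50 of 344) and in 9.81% of all promoters (948). Among late only genes that rose it stood in 7.78%, and in the 44 replication promoters in 4.55% (2). These shares are a description, without a test. The G2/M list and the classes share genes, as 32 G2/M genes were late only falls, so their shares are not separate. The promoters of CDC20 (chr1:43358731-43359030, plus strand) and of HMMR, a spindle protein (chr5:163460382-163460681, plus strand), are shown as examples picked after the matches were known, with TTTGAA in capitals on either strand.
CDC20: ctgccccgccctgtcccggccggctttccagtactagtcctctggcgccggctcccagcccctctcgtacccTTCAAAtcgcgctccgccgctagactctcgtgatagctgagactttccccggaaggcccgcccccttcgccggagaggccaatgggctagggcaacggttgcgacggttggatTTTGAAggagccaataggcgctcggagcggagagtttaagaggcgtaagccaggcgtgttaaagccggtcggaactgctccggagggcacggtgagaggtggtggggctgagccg
HMMR: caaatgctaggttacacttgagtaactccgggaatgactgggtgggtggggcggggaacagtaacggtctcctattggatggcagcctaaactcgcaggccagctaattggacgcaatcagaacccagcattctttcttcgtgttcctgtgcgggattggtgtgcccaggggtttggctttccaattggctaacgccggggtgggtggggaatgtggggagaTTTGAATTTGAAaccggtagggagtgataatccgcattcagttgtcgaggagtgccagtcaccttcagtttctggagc
HMMR has the element as a direct repeat, and was late only at low levels: 2.79, 1.74 and 1.88 rescaled FPKM with YKL against 4.96, 5.56 and 3.32 with DMSO at 24 h. At 6 h it had 8.02, 7.14 and 4.52 with YKL against 4.57, 5.26 and 5.33 with DMSO, where the groups overlapped.

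**Figure D2:**
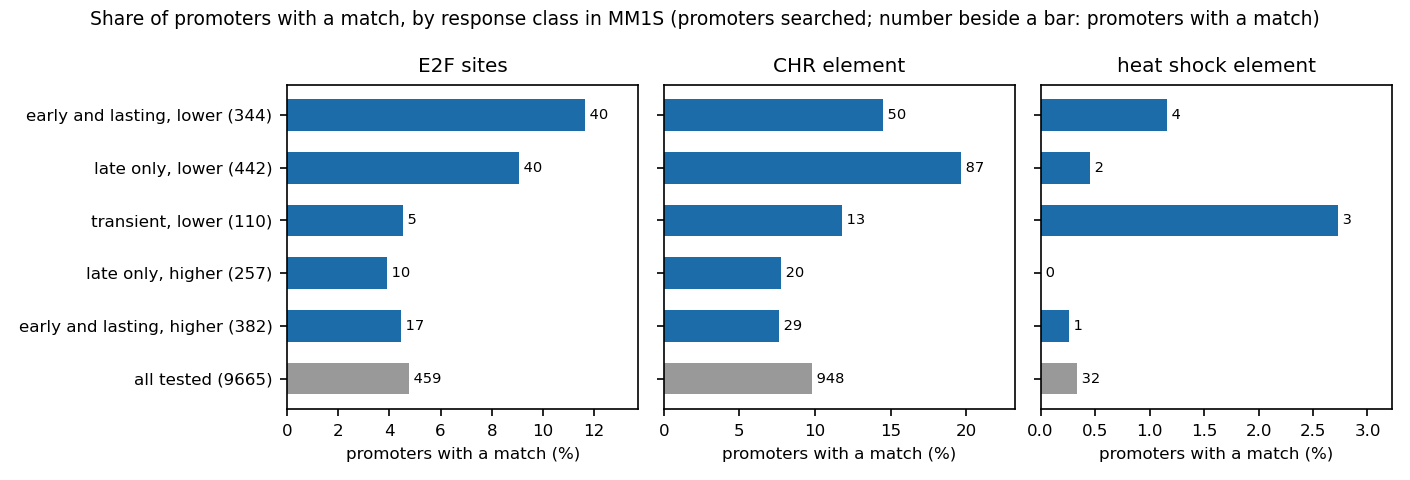
Percent of promoters with a match on either strand (horizontal axes) for the E2F sites, the CHR element and the heat shock element, by response class in MM1S (rows, with the promoters searched) and over all tested genes. The number beside a bar is the count of promoters. The E2F share is 11.6% in early and lasting falls and 9.05% in late only falls against 4.75% of all promoters, and the CHR share is 19.7% in late only falls against 9.81% of all.

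Several histone genes rose, although the libraries were primed on poly(A) tails, which most replication-dependent histone mRNAs lack. Of 28 tested, 7 were higher and 3 lower at 24 h, 3 higher and 0 lower at 6 h, and the median time difference was 0.06. Among all genes tested, 14.4% were higher and 13.3% lower at 24 h, and 8.25% and 7.22% at 6 h. The 24 h median of 0.02 was -0.01 on the deposited scale and -0.06 after cyclic loess. HIST1H2BK had 99.4, 84.7 and 77.6 rescaled FPKM with YKL against 8.42, 5.98 and 10.1 with DMSO at 24 h, and 20.5, 18.3 and 18.8 with YKL against 7.82, 6.78 and 8.70 with DMSO at 6 h. It rose early and further late, by 3.29 ± 0.17 and 1.21 ± 0.17 at 24 h and 6 h, with no overlap of the groups. HIST2H2BE rose by 2.73 at 24 h and 0.96 at 6 h. HIST1H2BD, by contrast, was late only: 45.2, 64.7 and 58.0 rescaled FPKM with YKL against 10.3, 9.48 and 3.62 with DMSO at 24 h, with -0.38 ± 0.38 at 6 h, where the groups overlapped. HIST1H3D was late only as well (2.04 at 24 h). HIST1H4H fell late (-2.15 at 24 h), with a time difference of -2.93 ± 0.89 and 0.101 to 5.74 rescaled FPKM among its YKL libraries at 6 h, and the call was lost without any 1 of 10 of the 12 libraries (adjusted p up to 0.105). The 24 h minus 6 h difference of HIST1H4H was -1.3 for YKL and 1.63 for DMSO. Reads of near-identical histone copies could be split between genes, so single members are uncertain.

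Heat shock chaperones fell early, and for a few of them the gap to vehicle had narrowed by 24 h. Of 23 listed genes tested, 13 were lower and 2 higher at 6 h, against 7.22% and 8.25% of all genes. At 24 h, 9 were lower and 1 higher, against 13.3% and 14.4% of all genes. A called time difference was found in 4 of the 23, all higher. The medians were -0.24 at 24 h, -0.54 at 6 h and 0.10 for the time difference. Over the list, the median 24 h minus 6 h difference was -0.07 for YKL and -0.36 for DMSO, against 0.12 and 0.13 over all genes. DNAJB1, a stress-inducible co-chaperone of HSP70, had 60.7, 76.6 and 88.2 rescaled FPKM with YKL against 108.8, 80.3 and 86.8 with DMSO at 24 h, and 62.8, 71.0 and 57.2 with YKL against 230.2, 222.7 and 307.4 with DMSO at 6 h. At 6 h every YKL library lay below every DMSO library, and at 24 h they overlapped (change -0.29 ± 0.19, against -1.97 ± 0.19 at 6 h). The vehicle itself moved: the 24 h minus 6 h difference was 0.23 for YKL and -1.45 for DMSO. The gap thus closed mainly in the DMSO libraries.

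CHORDC1, an HSP90 co-chaperone, behaved in the other way. It had 6.08, 6.42 and 4.49 rescaled FPKM with YKL against 6.29, 4.23 and 5.29 with DMSO at 24 h, and 3.51, 1.78 and 1.60 with YKL against 8.24, 7.59 and 9.01 with DMSO at 6 h. Its YKL level differed by 1.05 between 24 h and 6 h (24 h minus 6 h), and its DMSO level by -0.58. HSPA1B, an inducible HSP70, changed by -0.39 at 24 h, with overlapping groups, and by -1.5 at 6 h, while its DMSO level was -1.9 at 24 h relative to 6 h. It has a near-identical copy, HSPA1A, that could share its reads. The constitutive HSPA8 showed no return, with -1.21 at 24 h and -1.19 at 6 h (time difference -0.02 ± 0.38). DNAJA1, an HSP40 co-chaperone, was transient (-0.11 at 24 h, -0.72 at 6 h).

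The heat shock element was searched on both strands as TTC, NN, GAA, NN and TTC in 1 run, with N for any base. It stood in 5 of 21 matched heat shock promoters (23.8%) and in 32 of all 9665 promoters (0.33%). The classes and the heat shock list share genes, CHORDC1 among them, so their counts are not separate. By class, the element stood in 3 of 110 transient genes that fell (2.73%) and in 4 of 344 early and lasting genes that fell (1.16%). The promoters of CHORDC1 (chr11:90223000-90223299, minus strand) and DNAJA1 (chr9:33025023-33025322, plus strand), both transient, carry it and are shown with matches in capitals, again picked after the matches were known.
CHORDC1: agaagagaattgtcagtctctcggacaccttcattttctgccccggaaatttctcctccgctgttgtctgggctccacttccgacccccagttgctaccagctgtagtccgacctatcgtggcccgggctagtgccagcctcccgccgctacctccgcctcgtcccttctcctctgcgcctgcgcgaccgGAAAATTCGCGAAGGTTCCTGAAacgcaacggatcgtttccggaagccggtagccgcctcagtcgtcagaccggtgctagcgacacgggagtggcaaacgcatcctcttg
DNAJA1: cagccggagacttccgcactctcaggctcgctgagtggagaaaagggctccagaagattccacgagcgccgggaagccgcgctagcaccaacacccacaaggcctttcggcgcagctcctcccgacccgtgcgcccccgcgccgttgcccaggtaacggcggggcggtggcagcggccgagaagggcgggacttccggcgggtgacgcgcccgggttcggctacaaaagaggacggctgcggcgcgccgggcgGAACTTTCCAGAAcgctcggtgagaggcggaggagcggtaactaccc
CHORDC1 has 3 overlapping matches.

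Other transient falls named by the sorting were HMOX1, LARP7, CCR1 and CCL3. HMOX1, the haem-degrading enzyme, had 17.7, 23.6 and 31.7 rescaled FPKM with YKL against 27.3, 19.1 and 24.6 with DMSO at 24 h, and 9.78, 5.17 and 6.15 with YKL against 18.8, 19.8 and 25.6 with DMSO at 6 h. The fall at 6 h (-1.51 ± 0.20) was gone at 24 h (0.02 ± 0.20), with a DMSO level 0.13 higher at 24 h than at 6 h. CCR1, a chemokine receptor, changed by 0.19 at 24 h and -1.25 at 6 h, and CCL3, one of its ligands, by 0.06 and -1.35. For CCL3 the 24 h minus 6 h difference was 0.64 for YKL and -0.77 for DMSO. LARP7, which holds the 7SK RNA that restrains the elongation kinase P-TEFb, changed by 0.07 at 24 h and -0.88 at 6 h, whereas MEPCE, the enzyme that caps 7SK, was lower at 6 h (-0.57) and higher at 24 h (0.51). Over the 133 transient falls, the median 24 h minus 6 h difference was 0.78 for YKL and -0.08 for DMSO, against 0.12 and 0.13 over all genes. The larger median movement of the class was in the YKL libraries, unlike in DNAJB1.

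Transient rises numbered 88. SCG5, a secretory granule chaperone, had 1.12, 2.99 and 2.30 rescaled FPKM with YKL against 6.18, 1.75 and 3.21 with DMSO at 24 h, and 6.91, 14.3 and 9.54 with YKL against 1.90, 0.859 and 1.59 with DMSO at 6 h. Only the 6 h groups stood apart (2.17 ± 0.32, against -0.52 ± 0.32 at 24 h). VAMP5, a vesicle protein, changed by 0.35 at 24 h and 1.83 at 6 h. TNFRSF10D, a decoy receptor for the death ligand TRAIL, changed by 0.11 and 1.65. Its 24 h minus 6 h difference was -0.49 for YKL and 1.05 for DMSO, so the larger movement was in the vehicle. The noncoding transcripts LINC01089 and RASSF1-AS1 changed by -0.18 and -0.26 at 24 h and by 1.57 and 1.79 at 6 h. RASSF1-AS1 lies antisense to RASSF1 and the counting is not stated to use strand, so its reads are uncertain. SESN2, a stress-induced sestrin, rose at 6 h (0.83) with -0.26 at 24 h, and its DMSO level was 0.59 higher at 24 h. MVD, an enzyme of cholesterol synthesis, rose at 6 h by 0.49. The time difference of MVD was lost without any 1 of 4 libraries (adjusted p up to 0.06).

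Splicing factors fell early, and in some of them the fall had eased at 24 h. Of 34 SR protein and hnRNP genes, 16 were lower at each time, 6 higher at 24 h and 1 higher at 6 h, with medians of -0.40 at 24 h and -0.41 at 6 h. Across all genes tested, 13.3% were lower and 14.4% higher at 24 h, and 7.22% and 8.25% at 6 h. The count of 6 higher at 24 h lies near that share. SRSF3, a splicing regulator that controls its own mRNA, had 25.1, 24.3 and 26.4 rescaled FPKM with YKL against 44.9, 51.0 and 58.9 with DMSO at 24 h, and 15.1, 14.8 and 16.1 with YKL against 79.0, 74.8 and 78.6 with DMSO at 6 h. The groups were apart at both times and the gap was wider at 6 h (-0.996 ± 0.10 at 24 h, -2.26 ± 0.10 at 6 h, time difference 1.27 ± 0.14, adjusted p = 5.21e-06). SRSF7 likewise eased, with -0.41 at 24 h and -1.37 at 6 h. HNRNPA1 differed from these, with -2.20 at 24 h and -0.40 at 6 h, late only. Among 21 small nucleolar RNA host genes, whose introns release snoRNAs, 12 were lower at 24 h and 9 at 6 h. SNHG12 eased (-1.44 at 24 h, -2.58 at 6 h), and SNHG16 deepened (-1.63 at 24 h, -0.44 at 6 h). ANKRD37, a hypoxia-induced gene, had a fall of -3.26 ± 0.51 at 6 h, with -1.79 ± 0.51 at 24 h. Its time difference was not called (adjusted p = 0.217), and its DMSO libraries spread from 70.2 to 169 rescaled FPKM at 24 h.

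Of the 476 early rises that lasted (3.83% of all tested), 3 were among the 31 genes of CDK7, TFIIH and transcription kinases and 3 among the 24 genes of the BCL2 and IAP families. POLR2A, the catalytic subunit of RNA polymerase II, had 154.4, 165.4 and 169.5 rescaled FPKM with YKL against 47.8, 57.2 and 59.5 with DMSO at 24 h, and 129.5, 136.1 and 137.6 with YKL against 38.6, 36.45 and 36.8 with DMSO at 6 h. The groups were wide apart at both times, and the time difference was not called (-0.26 ± 0.15). MCL1, an anti-apoptotic BCL2 protein with a short-lived mRNA, rose by 1.11 ± 0.08 at 24 h and 0.77 ± 0.08 at 6 h. Its YKL libraries had 563.7, 509.9 and 557.8 rescaled FPKM at 24 h and 327.4, 358.2 and 315.8 at 6 h, above all DMSO libraries (191.6 to 268.3). CEACAM21, a cell surface protein, rose more at 6 h (2.73) than at 24 h (1.91), with a called time difference of -0.83 ± 0.25 that was lost without any 1 of 8 of the 12 libraries (adjusted p up to 0.113). VPREB3, a B lineage protein, rose by 2.31 at 24 h and 1.82 at 6 h, and SNAI3-AS1, antisense to SNAI3, by 2.85 and 2.15. In the whole list of CDK7, TFIIH and transcription kinases, 6 were higher at 24 h and 7 at 6 h, and 0 and 3 were lower. Over all genes tested, 14.4% were higher at 24 h and 8.25% at 6 h, and 13.3% and 7.22% were lower. CDK7 itself was not called: it had 4.07, 2.83 and 4.82 rescaled FPKM with YKL and 8.27, 4.57 and 4.0 with DMSO at 24 h, and 6.02, 6.98 and 2.34 with YKL and 6.17, 3.78 and 3.08 with DMSO at 6 h, all overlapping.

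**Figure D3:**
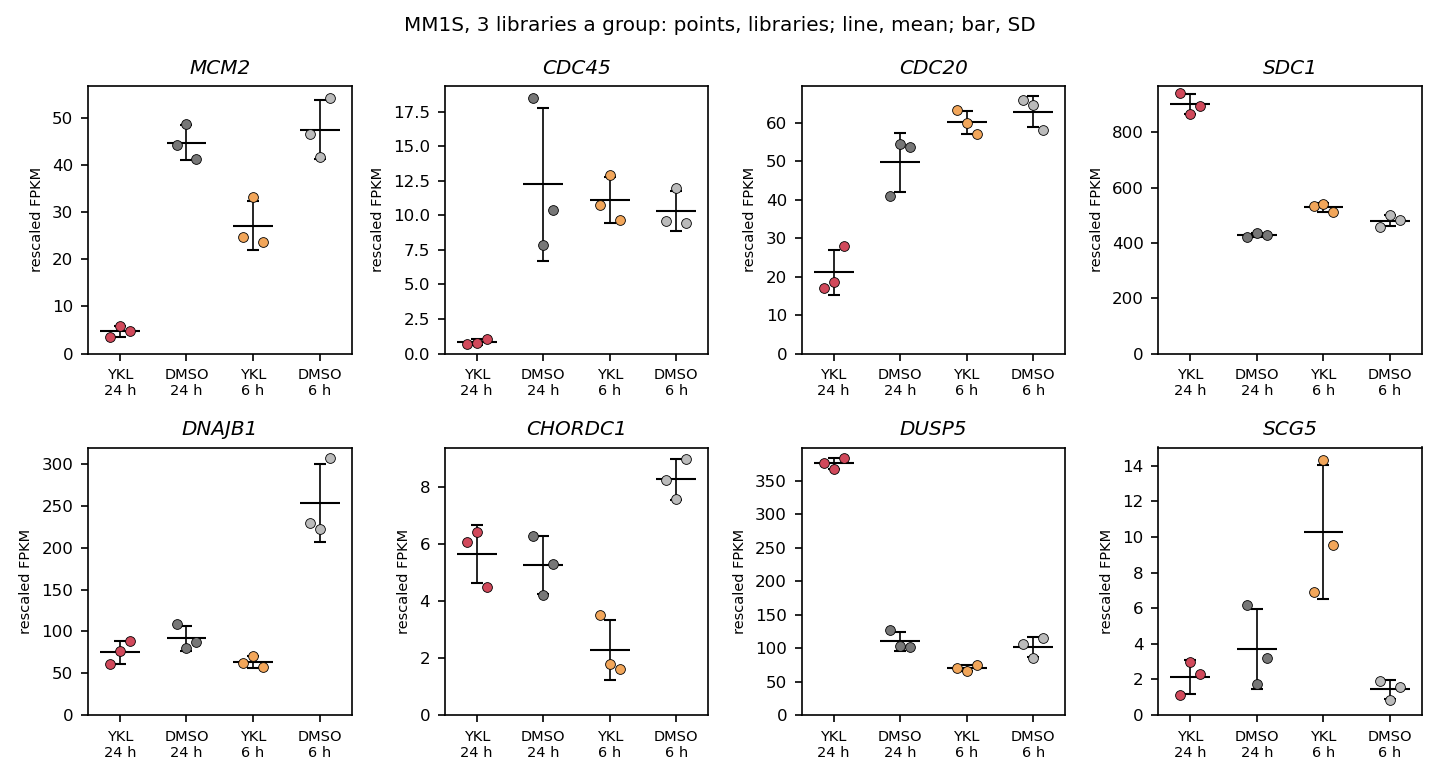
Rescaled FPKM (vertical axes) of 8 genes in the MM1S groups YKL 24 h, DMSO 24 h, YKL 6 h and DMSO 6 h. Points are the 3 libraries of a group, lines the means and bars the SD. MCM2 falls at both times, CDC45 and CDC20 at 24 h alone, SDC1 rises at 24 h, DNAJB1 and CHORDC1 are apart at 6 h alone, DUSP5 lies above DMSO at 24 h and below it at 6 h, and SCG5 is raised at 6 h.

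Many genes of the plasma cell programme were higher at 24 h in rescaled values. Of 28 myeloma and plasma cell regulators, 14 were higher and 4 lower at 24 h, 3 higher and 2 lower at 6 h, and 8 had a called time difference that was higher and 2 that was lower. The medians were 0.42 at 24 h, -0.09 at 6 h and 0.49 for the time difference. Shares over all genes tested were 14.4% higher and 13.3% lower at 24 h, and 8.25% and 7.22% at 6 h. For the time difference they were 4.31% and 6.28%, and some of the smaller counts lie near these shares. On the deposited scale 1 of the 28 was higher and 3 were lower at 24 h, with a median of 0.14. SDC1 (CD138), the surface proteoglycan that marks plasma cells, had 941.6, 867.6 and 896.8 rescaled FPKM with YKL against 421.6, 435.2 and 430.3 with DMSO at 24 h, and 533.9, 541.7 and 510.1 with YKL against 459, 499.8 and 482.5 with DMSO at 6 h. The groups were apart at both times, and only the 24 h change was called (1.07 ± 0.07, against 0.14 ± 0.07 at 6 h). XBP1, the transcription factor of the secretory programme, changed by 0.79 ± 0.11 at 24 h and -0.05 ± 0.11 at 6 h. TNFRSF17 (BCMA), the receptor for plasma cell survival signals, changed by 0.97 and 0.14, and CRBN, the target of thalidomide-type drugs, by 0.97 and -0.22. POU2AF1, a B cell coactivator, and IL6R, the receptor for interleukin 6, changed sign: 0.63 and 0.52 at 24 h against -0.59 and -0.41 at 6 h. For POU2AF1 the 24 h minus 6 h difference was 0.52 for YKL and -0.69 for DMSO. Not all followed, since MZB1, a chaperone of antibody secretion, was lower at 24 h (-0.85), and IRF4, the master regulator of myeloma, was called at neither time (0.28 ± 0.13 and 0.16 ± 0.13).

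DUSP5, a nuclear phosphatase of ERK, was higher late and lower early. It had 376.8, 367.9 and 383.6 rescaled FPKM with YKL against 126.6, 102.7 and 101.5 with DMSO at 24 h, and 70.0, 65.9 and 74.2 with YKL against 105.8, 85.1 and 115 with DMSO at 6 h. The YKL libraries lay above DMSO late and below it early (1.77 ± 0.12 at 24 h, -0.53 ± 0.12 at 6 h, time difference 2.29 ± 0.16, adjusted p = 6.88e-08). Among 27 immediate early genes 8 were higher and 4 lower at 24 h, 2 higher and 6 lower at 6 h, and all 7 called time differences were higher. JUN and KLF2 stayed lower at both times (-0.88 and -0.86 at 24 h, -1.26 and -1.54 at 6 h). Of 21 NF-kB genes, 7 were higher and 0 lower at 24 h against 1 higher and 5 lower at 6 h, with a 24 h median of 0.19 that was -0.05 on the deposited scale. Over all genes, 14.4% were higher and 13.3% lower at 24 h, and 8.25% and 7.22% at 6 h. As deposited, 1 immediate early gene was higher and 3 lower at 24 h. MYC had 20.4, 14.3 and 16.4 rescaled FPKM with YKL against 7.23, 14.2 and 12.6 with DMSO at 24 h, and 20.7, 19.5 and 11.2 with YKL against 37.2, 32.8 and 18.4 with DMSO at 6 h. Neither change was called (0.58 ± 0.25 and -0.74 ± 0.25), but their difference was (1.32 ± 0.36, adjusted p = 0.0217), and the 24 h minus 6 h difference was 0.02 for YKL and -1.29 for DMSO. That call was lost on the deposited scale (adjusted p = 0.299), with a pseudocount of 0.25 (0.0645), in the fit of the 12 MM1S libraries (0.125), and without any 1 of YKL 24 h replicate 1, DMSO 24 h replicate 1, YKL 6 h replicate 3 and DMSO 6 h replicates 1 and 2 (up to 0.0644). Of 48 MYC targets and ribosome biogenesis genes, 16 were lower at 24 h, 20 at 6 h and 0 higher at either.

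Several apoptosis genes were higher at 24 h in rescaled values. Of 24 BCL2 and IAP family genes, 11 were higher and 2 lower at 24 h, 4 higher and 2 lower at 6 h. On the deposited scale 0 of them were higher and 2 lower at 24 h, and the 24 h median of 0.46 was 0.19. BBC3 (PUMA), a pro-apoptotic BH3 protein, had 96.5, 90.8 and 98.9 rescaled FPKM with YKL against 27.9, 54.4 and 53.9 with DMSO at 24 h, and overlapping groups at 6 h (1.12 ± 0.21 and -0.28 ± 0.21). BCL2L11 (BIM), of the same kind, changed by 0.71 and -0.60. The anti-apoptotic BCL2 and BCL2L1 changed by 1.05 and 0.83 at 24 h and by 0.27 and 0.24 at 6 h. CFLAR, which blocks caspase-8, changed sign (0.92 at 24 h, -0.45 at 6 h). PMAIP1 (NOXA) fell late (-1.69 at 24 h, -0.29 at 6 h), at 0.147 to 1.10 rescaled FPKM with YKL. CDKN1A, the p53-induced CDK inhibitor p21, was lower at 24 h (-0.49 ± 0.14) and not called at 6 h (0.24 ± 0.14), with a DMSO level 1.63 higher at 24 h than at 6 h. The time difference of CDKN1A was lost without any 1 of 4 libraries, YKL 24 h replicate 3, DMSO 24 h replicate 1, YKL 6 h replicate 2 or DMSO 6 h replicate 3 (adjusted p up to 0.0652). Of 29 p53 targets, 9 were higher and 2 lower at 24 h and 5 higher and 1 lower at 6 h. Over all genes tested the shares were 14.4% and 13.3% at 24 h, and 8.25% and 7.22% at 6 h. As deposited, 0 p53 targets were higher and 1 lower at 24 h.

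SCO2, which rose late, is a copper chaperone of cytochrome oxidase and had 25.2, 17.9 and 26.7 rescaled FPKM with YKL at 24 h and 0.260 or less in every other library of MM1S. The other libraries' values lie near the lowest that each library holds. C11orf96 rose late to 721, 585.7 and 639.3 rescaled FPKM with YKL, against 87.1, 123.1 and 118.8 with DMSO at 24 h. ZBP1, a sensor of Z-form nucleic acid, changed by 1.85 at 24 h and -0.19 at 6 h. TMEM150A, a membrane protein, changed by 2.14 and 0.34, IRF1, an interferon regulatory factor, by 1.09 and 0.25, and BTG1, an antiproliferative factor, by 0.98 and -0.29. Late falls outside the cell cycle included TMEM98, a membrane protein (-2.76 at 24 h, -0.21 at 6 h), FABP6, a bile acid binding protein (-2.49 and 0.06), IMPA2, an inositol phosphatase (-2.49 and 0.17), and PHF10, a chromatin remodelling subunit (-2.35 and 0.36). The vehicle moved up in part of these. The 24 h minus 6 h difference was -1.51 for YKL and 1.21 for DMSO in PHF10, and -1.82 and 0.73 in FABP6. It was -2.12 and 0.43 in TMEM98, and -2.51 and 0.15 in IMPA2.

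Lists of metabolism and translation held more genes lower than higher at 24 h, in shares that varied. For comparison, 14.4% of all genes tested were higher and 13.3% lower at 24 h, and 8.25% and 7.22% at 6 h. Called time differences were higher in 4.31% and lower in 6.28%. Some of the 6 h counts below lie near these shares. Of 31 ATF4 and amino acid response genes, 21 were lower and 0 higher at 24 h, 5 lower and 1 higher at 6 h, and all 11 called time differences were lower. PSAT1 and PHGDH, enzymes of serine synthesis, changed by -2.52 and -1.78 at 24 h and by -0.75 and 0.15 at 6 h. Of 30 glycolysis and hypoxia genes, 18 were lower at 24 h and 3 at 6 h, among them ENO1 (-0.90 at 24 h, 0.26 at 6 h) and TPI1 (-0.78, 0.24). Of 53 cytosolic ribosomal protein genes, 28 were lower and 0 higher at 24 h, 0 lower and 6 higher at 6 h, and 28 had a called lower time difference, as in RPL23 (-1.08 at 24 h, 0.13 at 6 h). The list median of -0.67 for the time difference was -0.28 after scaling to equal sums, with 6 called, and -0.14 after cyclic loess, with 5 lower and 2 higher called. At 6 h, its median of 0.24 was -0.23 on the deposited scale. The nuclear genes of oxidative phosphorylation (41) had 11 lower and 1 higher at 24 h, 0 lower and 9 higher at 6 h, and 15 lower called time differences, against 3 after cyclic loess. Their 6 h median of 0.27 was -0.19 on the deposited scale. The tenth of all genes with the highest levels had a median time difference of -0.20, and its part in these 2 lists was not tested.

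**Figure D4:**
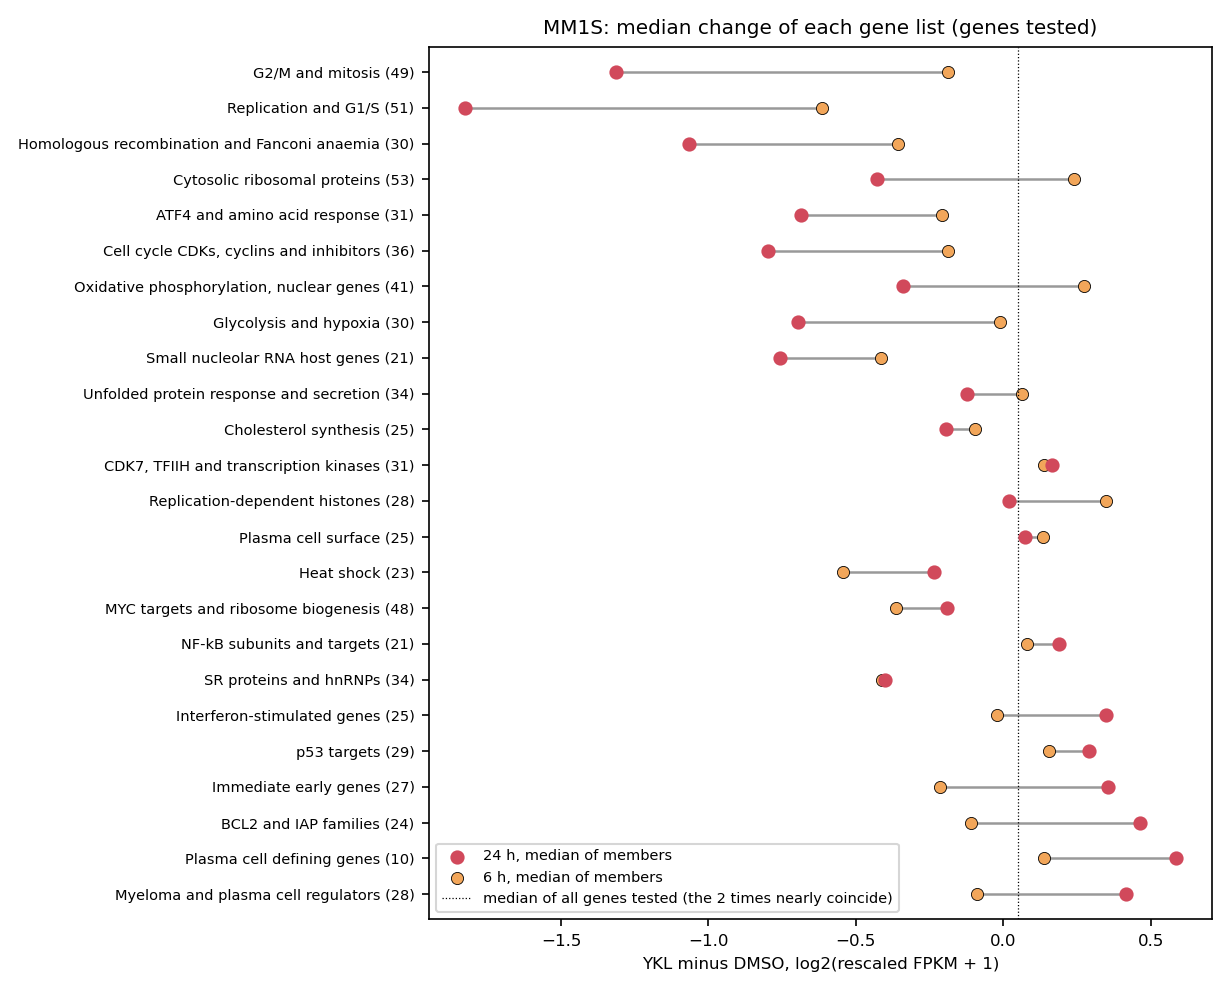
Median change (horizontal axis, YKL minus DMSO, log2(rescaled FPKM + 1)) of 24 gene lists in MM1S at 24 h (red) and 6 h (orange), with the number of genes tested in brackets and lists ordered by their median time difference, lowest at the top. Replication and G2/M lists are far lower at 24 h than at 6 h, heat shock and ribosome biogenesis lists are lower at 6 h, and the dotted line is the median of all genes.

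The remaining lists are given by their counts. Over all genes tested, 14.4% were higher and 13.3% lower at 24 h, and 8.25% higher and 7.22% lower at 6 h. Called time differences were higher in 4.31% and lower in 6.28% of all genes. Some of the counts below lie near these shares. Of 30 homologous recombination and Fanconi anaemia genes, 24 were lower at 24 h and 7 at 6 h, with 11 lower called time differences. Of 36 cell cycle CDKs, cyclins and inhibitors, 21 were lower at 24 h and 7 at 6 h, and CCND2, a G1 cyclin, was lower at 24 h (-0.73 ± 0.25) with the timing unresolved and a DMSO library at 196.7 rescaled FPKM against 70.6 and 79.2. Among 34 unfolded protein response genes, 5 were higher and 8 lower at 24 h. Of 25 genes of the plasma cell surface, 7 were higher and 2 lower at 24 h, and 16 were called at neither time. Of 25 interferon-stimulated genes, 6 were higher at 24 h and 3 at 6 h, and of 25 cholesterol genes, 8 were lower at 24 h and 2 at 6 h. Of 5 metallothionein genes, 1 was higher and 2 lower at 24 h. All 10 measured genes that define plasma cells reached 1 rescaled FPKM in each MM1S group, in at least 1 library. Their summed levels were 4430 to 7250 rescaled FPKM. CD38 among them was low, at 0.469 to 2.92 rescaled FPKM, levels that some markers of other cells also reached. Markers of other cells were low or near 0, with summed levels of at most 5.33 for T cells, 10.1 for monocytes, and 5.21 for epithelial cells and fibroblasts. Of these, 1 of 7 tested was called: CD3G, at 2.36 rescaled FPKM or less, a call lost without any 1 of 9 of the 12 libraries (adjusted p up to 0.0969).

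The time course in H929 was set beside that in MM1S, as separate samples in the same fit. In H929, 1294 genes had a called time difference (10.4%), 716 higher (5.77%) and 578 lower (4.65%). In all, 459 were called in both lines, which is 34.9% of the MM1S calls and 35.5% of the H929 calls, with 441 in the same direction. Across genes the time differences of the lines had a Pearson r of 0.28. The replication list had a median time difference of -1.17 in MM1S and -1.16 in H929, and 0 of its 51 members had a called difference between lines (adjusted over all genes). The difference of the time differences itself was called for 226 genes (1.82%), 70 higher (0.564%) and 156 lower (1.26%) in MM1S.

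Of the 23 heat shock genes, 4 differed between the lines, all higher in MM1S, as did 5 of 48 MYC target and ribosome biogenesis genes and 4 of 29 p53 targets, against 0.564% of all genes called higher. Of 34 genes of SR proteins and hnRNPs, 3 were higher in MM1S. Called lower in MM1S were 3 of 49 G2/M genes, whose median time difference was -1.21 in MM1S and -0.82 in H929, and 2 of 41 oxidative phosphorylation genes, against 1.26% of all genes. DNAJB1 changed by -0.29 at 24 h and -1.97 at 6 h in MM1S, and by -0.53 and -0.39 in H929 (difference between lines 1.81 ± 0.38, adjusted p = 0.0177). Its 6 h change was larger in MM1S. CHORDC1 differed by 1.57 ± 0.34 (adjusted p = 0.0205). FKBP4, an HSP90 co-chaperone, changed by -0.39 at 24 h and -0.46 at 6 h in MM1S and by -1.17 and -0.13 in H929. HSPD1, the mitochondrial chaperonin, changed by -0.61 and -0.63 in MM1S and by -1.48 and -0.06 in H929. Both chaperone genes were lower at both times in MM1S, while in H929 the 24 h change was the larger. DUSP5 changed by 1.77 and -0.53 in MM1S and by 0.46 and 0.04 in H929 (difference 1.88 ± 0.23, adjusted p = 0.00037). SRSF3 changed by -0.996 and -2.26 in MM1S and by -0.75 and -0.89 in H929 (difference 1.13 ± 0.19, adjusted p = 0.00549). Both genes had the larger time difference in MM1S. FTH1, the ferritin heavy chain, was higher and then lower in MM1S (-1.29 at 24 h, 0.50 at 6 h), and was 0.20 and 0.02 in H929 (difference -1.97 ± 0.27, adjusted p = 0.000644). The 24 h minus 6 h difference of FTH1 in MM1S was -0.89 for YKL and 0.9 for DMSO. TMEM98 differed by -2.03 ± 0.35, FABP6 by -2.13 ± 0.40 and C11orf96 by 1.78 ± 0.40.

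Other large differences between lines came mainly from movement in H929. At 24 h MILR1 and CACNG6 changed by -0.03 and -0.16 in MM1S and by 3.90 and 3.35 in H929 (differences -3.50 ± 0.71 and -3.12 ± 0.44). IDH1-AS1, antisense to IDH1 and uncertain without strand, differed by -3.24 ± 0.80. Part of this lay in MM1S, where it changed by -0.07 at 24 h and 1.03 at 6 h (time difference -1.10 ± 0.57, not called). Its 24 h minus 6 h difference there was 0.88 for YKL and 1.98 for DMSO. HBE1, an embryonic globin, changed by 0.39 in MM1S and by -1.51 in H929 at 24 h (difference 2.14 ± 0.43). On the MM1S side, DDX11, a DNA helicase with near-identical relatives in the genome, changed by 0.64 at 24 h and -0.82 at 6 h (difference 1.97 ± 0.40), and the ribosomal protein pseudogene RPS7P5 by 0.88 and -0.95 (difference 2.19 ± 0.52). Reads of such copies may be split, so both are uncertain. In MM1S the 24 h minus 6 h difference of DDX11 was 0.28 for YKL and -1.18 for DMSO.

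**Figure D5:**
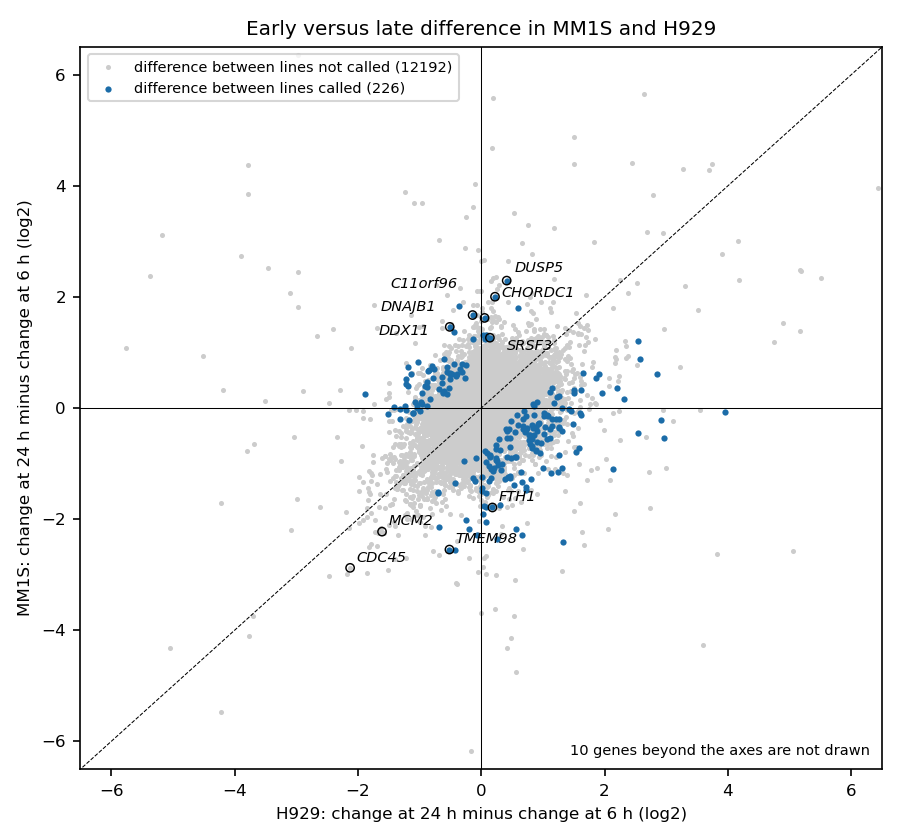
Time difference (change at 24 h minus change at 6 h, log2) in MM1S (vertical axis) against H929 (horizontal axis), with 1 point per gene and the 226 genes with a called difference between lines in blue. MCM2 and CDC45 lie low in both lines, whereas DUSP5, DNAJB1 and CHORDC1 lie high and FTH1 and TMEM98 low in MM1S and nearer 0 in H929. The 10 genes beyond the axes are not drawn.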

How the data were processed

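RNA of MM1S and H929 cells grown in 12 well plates was measured by QuantSeq 3′ sequencing in 24 libraries, 3 for each of 8 groups. Per the submitters' processing notes, HISAT2, Cuffnorm and hg19 were used, with versions not given in the sources used here. The deposited values are FPKM per gene (26249 gene entries and 92 ERCC spike-ins), which the authors made from their reads. Depth is unknown, and whether the spike-ins set the deposited scale is not stated. Summed FPKM of the spike-ins was 137825 to 150501 over the 24 libraries, against 361698 to 2519635 for the genes. How the scale was set was not tested. Libraries were rescaled by the median of ratios over 6014 reference genes, and the 12418 genes that reached 1 FPKM in 3 or more libraries were tested on log2(value + 1). One limma 3.58.1 fit (R 4.3.3) of 8 group means over 24 libraries gave each contrast, with Benjamini-Hochberg adjustment over all tested genes and a threshold of 0.05. The fit was tested on simulated data. The members, gene lists and classes were chosen with earlier results of these data known. Genes were named by a rule: the 8 largest called time differences of each sign, up to 5 genes of each class and direction, up to 2 of each list, 8 set genes and the 3 largest line differences of each sign, without small RNAs and clone names. A gene that the rule picked is not reported here. Further genes were chosen after their values were seen: ATPAF1, MSI2, AURKB, BCL2, BCL2L1, BCL2L11, CCNE2, CDC20, CDC25C, CDK1, CRBN, DNAJA1, FKBP4, GINS1, GINS3, GINS4, HMMR, HSPA1B, HSPA8, HSPD1, JUN, KLF2, LIG1, MCM5, MELK, MZB1, ORC1, ORC6, PCNA, PMAIP1, POLA1, POLE, POLE2, POLR2A, RRM1, SNHG12, SRSF7, TIPIN, TK1, TNFRSF17 and TOP2A. Alternatives changed the scale, pseudocount, filter, fit and libraries; cyclic loess was added after seeing the data.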

Additional observations from a re-analysis of the deposited data

Results flagged for a closer look

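The change under YKL differed between 24 h and 6 h in MM1S by the test of the time difference itself for 1315 genes, and that time difference differed between MM1S and H929 for 226. The values below are log2 differences of limma fits for the genes described above, given without an explanation.

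Among early and lasting genes the time difference was -2.23 for MCM2, -1.87 for RRM2, -2.25 for E2F1, -2.44 for TCF19, -1.76 for FAM111B, -1.78 for PSAT1 and -1.19 for SNHG16. It was 1.27 for SRSF3, 2.08 for HIST1H2BK, 1.76 for HIST2H2BE and -0.83 for CEACAM21. Late only genes of the cell cycle had -2.88 for CDC45, -2.23 for GINS2, -2.48 for CENPM, -1.99 for CDK2, -1.52 for AURKA and -0.74 for CDKN1A. Other late falls had -2.55 for TMEM98, -2.55 for FABP6, -2.65 for IMPA2, -2.72 for PHF10, -2.93 for HIST1H4H and -1.80 for HNRNPA1. In metabolism and translation the values were -1.93 for PHGDH, -1.16 for ENO1, -1.02 for TPI1 and -1.21 for RPL23.

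Late rises had 4.29 for SCO2, 3.16 for HIST1H2BD, 2.26 for HIST1H3D, 2.0 for C11orf96, 2.04 for ZBP1, 1.80 for TMEM150A and 1.39 for BBC3. Smaller late rises had 1.26 for BTG1, 1.16 for CD3G, 0.93 for SDC1, 0.84 for XBP1 and 0.84 for IRF1, and MYC had 1.32. Transient falls had 1.67 for DNAJB1, 1.62 for CHORDC1, 1.53 for HMOX1, 1.45 for CCR1, 1.41 for CCL3 and 0.95 for LARP7. Transient rises had -2.70 for SCG5, -2.05 for RASSF1-AS1, -1.75 for LINC01089, -1.53 for TNFRSF10D, -1.48 for VAMP5, -1.08 for SESN2 and -0.73 for MVD. Genes higher and then lower had -2.28 for C2orf48, -1.93 for STIL, -1.79 for FTH1, -1.71 for POC1A and -1.53 for BIRC5. Genes lower and then higher had 2.29 for DUSP5, 1.83 for RPS7P5, 1.46 for DDX11, 1.38 for CFLAR, 1.21 for POU2AF1, 1.09 for MEPCE and 0.93 for IL6R.

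The difference between lines (MM1S minus H929) was 2.19 for RPS7P5, 2.14 for HBE1, 1.97 for DDX11, 1.88 for DUSP5, 1.81 for DNAJB1, 1.78 for C11orf96, 1.57 for CHORDC1, 1.21 for TMEM150A and 1.13 for SRSF3. It was -3.50 for MILR1, -3.24 for IDH1-AS1, -3.12 for CACNG6, -2.21 for VAMP5, -2.13 for FABP6, -2.13 for RASSF1-AS1, -2.06 for LINC01089, -2.03 for TMEM98, -1.97 for FTH1, -1.62 for TNFRSF10D, and -0.82 for both AURKA and BIRC5.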

How the results depend on the processing

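All 1315 called time differences kept their sign under every alternative scale, pseudocount, filter (where tested), fit and set of libraries listed here, and 1308 after cyclic loess (1399 called). Another filter, the fit of the 12 MM1S libraries and the replicate block leave the estimates unchanged, so signs could not differ there. Of the 1315, 549 were still called in the fit of the 12 MM1S libraries. As deposited, 10 were called (4 higher, 6 lower), 926 genes at 24 h (85 higher, 841 lower), 115 higher at 6 h, 4 differences between lines, 349 genes in the classes (340 early and lasting, 3 transient, 3 late only, 3 sign-changing), 4 called members of the lists and 9 of the 95 named genes. Equal sums gave 2443 (2080 higher, 363 lower), 2916 higher at 24 h, 377 higher and 1454 lower at 6 h, 459 transient, 1493 late only and 154 sign-changing genes. Without a filter there were 126 differences between lines, 122 transient and 37 sign-changing genes. The fit of the 12 MM1S libraries gave 557 (204 higher, 353 lower), 818 at 6 h (383 higher, 435 lower), 895 in the classes (396 early and lasting, 59 transient, 422 late only, 18 sign-changing) and 132 list members. Array weights gave 2910 at 6 h (1607 higher), 670 differences between lines, 349 transient and 107 sign-changing genes. Same-numbered MM1S libraries did not deviate together (correlations from -0.13 to 0.00), and the main fit did not pair them. Such correlations cannot tell if these libraries shared a culture or handling. With the replicate block 1142 time differences and 146 differences between lines were called. Leaving out 1 library gave 1023 to 1411 time differences, 633 to 1331 genes higher at 6 h (lowest without YKL 6 h replicate 2), 131 to 263 transient (lowest without DMSO 6 h replicate 3) and 34 to 92 sign-changing genes (34 without that library, 41 without YKL 6 h replicate 3). With motifs on the given strand alone, shares were 2.72% (E2F) and 5.34% (CHR) over all promoters, 20.45% (E2F) in the replication list, 58.1% (CHR) in the G2/M list, 7.27% (E2F) in early and lasting falls, and 4.3% (E2F) and 11.99% (CHR) in late only falls. Except where a setting has fewer samples or other genes tested, the cause was not tested.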
